A study of Mus musculus with 63 samples.

Results

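The genes described are 9 of the cell adhesion genes through which the axon terminal and the spine of a synapse hold on to each other: the neurexins Nrxn2 and Nrxn3, the neuroligins Nlgn1, Nlgn2 and Nlgn3, and the leucine-rich repeat proteins Lrrtm1, Lrrtm2, Lrrtm3 and Lrrtm4. They were chosen by symbol, as the rows of the count files that carry these names, and make up 9 of 55291 gene symbols counted. All 9 passed the filter on low counts in each of the 20 comparisons made.

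RNA was sequenced from entorhino-hippocampal tissue cultures, slices of hippocampus with the entorhinal cortex attached, taken from mouse pups at postnatal days 3 to 5 and matured for at least 18 days. Cultures came from wildtype C57BL/6J mice (Synpo+/+, WT below) or from B6.129-Synpotm1Mndl/Dllr mice (Synpo-/-, KO below), which lack synaptopodin and were back-crossed to C57BL/6J. In a lesion group (ECL) the entorhinal cortex had been cut off 3 days earlier, which removes the perforant path, and control groups were not cut. In 39 libraries a single dentate gyrus (DG) or CA3 subfield was sequenced, with 4 WT DG control, 7 WT DG ECL, 7 KO DG control, 4 KO DG ECL, 2 WT CA3 control, 3 WT CA3 ECL, 6 KO CA3 control and 6 KO CA3 ECL libraries. In 24 libraries, RNA pulled down from pooled cultures with an antibody against synaptopodin (coIP) was set against an aliquot of the lysate (input), with 5 WT control, 5 WT ECL and 2 KO libraries of each fraction. The titles of the KO coIP and input libraries give no lesion state. A regional library came from a single culture and a coIP library from pooled cultures. WT coIP and input libraries of equal replicate number are taken below to share a lysate, which their titles do not state. The labels do not say whether libraries of a group came from separate animals, so p-values measure the spread between these libraries.

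Total counts per library ran from 14055930 to 46043990 in the regional libraries and from 11601154 to 53682143 in the coIP experiment. In the latter the KO libraries held 42886994 to 53682143 counts and the WT libraries at most 29014397. The part of this difference in depth in comparisons of WT with KO coIP was not tested. Synpo, the targeted gene, did not show the deletion: its level in control DG was higher in libraries labelled Synpo-/- than in WT (log2 fold change 1.17 ± 0.13 SE, adjusted p = 0.000517 in edgeR's quasi-likelihood test). The genotype of a library is therefore taken from its label alone, here and below. The counts cover all annotated exons of Synpo, and which of them the allele lacks is not given in the sources used here. The library labelled WT DG ECL replicate 5 stood apart from its group. Its Prox1, the transcription factor that defines granule cells, was at 15.5 normalized CPM, which are counts scaled by library size, against 170 to 217 in the other 6 libraries, and its CA3 pyramidal cell markers summed to 620 CPM against 195 to 245. Results that rest on it are given with and without it. The library labelled KO CA3 control replicate 1 had the highest Prox1 of its group, 44.0 CPM against 15.6 to 18.7 in the other 5, and a granule cell marker sum of 153 CPM against 69.7 to 96.6.

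Neurexins sit mainly in the presynaptic membrane and act as a docking hub. Neuroligins and Lrrtm proteins reach across the cleft from the postsynaptic side and bind them, and inside the cell both sides hold scaffold proteins. Nlgn1 is found mainly at excitatory synapses, Nlgn2 at inhibitory synapses, and Nlgn3 at both, while Lrrtm proteins are organizers of excitatory synapses that help to hold AMPA receptors in place. Lrrtm4, whose protein also binds glypicans, is known as a marker of granule cell dendrites in the dentate gyrus.

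In GRCm38, Nrxn3 has the longest span of these genes, chr12:88722876-90334935 on the plus strand, and Nrxn2 spans chr19:6418731-6544169 on the plus strand. Nlgn1 lies at chr3:25426215-26332460 on the minus strand, Nlgn2 at chr11:69823122-69837784 on the minus strand and Nlgn3 at chrX:101299168-101325963 on the plus strand. Lrrtm1 (chr6:77242689-77257791, plus strand) sits within the span of the α-catenin gene Ctnna2, Lrrtm2 within Ctnna1, and Lrrtm3 (chr10:63928472-64090277, minus strand) within Ctnna3. Lrrtm4 lies at chr6:80018877-80810143 on the plus strand. The annotated exons of the 9 genes add up to between 3033 bases in Lrrtm1 and 13812 bases in Nrxn2, against a median of 1232 over all symbols. Counting ignored strand, so reads could not be told apart where Lrrtm4 shares 1543 exon bases (25.1%) with the antisense gene Gm4409 and Nlgn1 shares 1229 with the antisense gene A830092H15Rik. Nlgn3 shares 3823 exon bases (41.2%) with Gm21986 on its own strand, the largest share among the 9.

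The sequences just before the starts of Lrrtm4, Lrrtm3 and Lrrtm1 are shown because the first pair of genes was higher in DG than in CA3 and the third was lower. They are RefSeq promoter windows in GRCm38.p6, 5′ to 3′ on the gene's strand, without bases of annotated exons, and capitals mark the E-box letters CANNTG, which read the same on both strands. Lrrtm4 is chr6:80018627-80018876 (plus strand), Lrrtm3 is chr10:64090278-64090505 (minus strand) and Lrrtm1 is chr6:77242227-77242476 (plus strand).
Lrrtm4: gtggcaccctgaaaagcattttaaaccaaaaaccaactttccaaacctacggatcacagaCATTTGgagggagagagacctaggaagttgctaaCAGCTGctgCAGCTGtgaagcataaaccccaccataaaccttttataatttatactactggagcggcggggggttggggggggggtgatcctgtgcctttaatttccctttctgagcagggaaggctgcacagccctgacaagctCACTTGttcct
Lrrtm3: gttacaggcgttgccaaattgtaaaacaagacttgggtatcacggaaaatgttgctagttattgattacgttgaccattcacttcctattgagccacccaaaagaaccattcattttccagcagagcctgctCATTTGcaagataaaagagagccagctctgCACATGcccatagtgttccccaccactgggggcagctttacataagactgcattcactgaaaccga
Lrrtm1: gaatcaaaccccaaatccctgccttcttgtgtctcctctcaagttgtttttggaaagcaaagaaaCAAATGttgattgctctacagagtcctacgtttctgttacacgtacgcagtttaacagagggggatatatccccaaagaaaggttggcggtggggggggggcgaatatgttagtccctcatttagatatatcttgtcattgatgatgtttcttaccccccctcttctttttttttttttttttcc
The Lrrtm4 window held 4 matches, the Lrrtm3 window 2 and the Lrrtm1 window 1. Of 32851 promoter windows of 250 bases before the start, 66.2% held at least 1 match, the median was 1, and 12.2% held 3 or more, and the Lrrtm3 window is shorter by its exon bases. Windows of further annotated starts held 2 matches for Lrrtm4 and 0, 1 and 5 for the 3 starts of Nrxn3, which was lower in DG. RefSeq entries were matched for 6 of the 9 genes (Nrxn3, Nlgn1, Nlgn2, Lrrtm1, Lrrtm3 and Lrrtm4), and a match describes letters, not a bound site.

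Levels of different genes were compared per length, as normalized CPM per kilobase of annotated exons (RPKM). These lengths include exon bases shared with other genes, 41.2% of those of Nlgn3 and 25.1% of those of Lrrtm4. The part of shared bases in the levels was not tested. In the WT CA3 control libraries Nlgn1 was highest with 26.1 ± 2.26 RPKM (SD, n = 2), followed by Lrrtm1 with 22.3 ± 2.10, Nrxn3 with 17.2 ± 1.94 and Lrrtm2 with 12.0 ± 0.312. Nlgn2 and Nlgn3 both stood at 7.80 RPKM, or 7.87 and 8.45 over exons of coding transcripts, and did not differ beyond their spread. Lrrtm4 followed with 3.75 ± 0.537, Lrrtm3 with 1.73 ± 0.115 and Nrxn2 with 0.903 ± 0.0759 RPKM. In the WT DG control libraries Lrrtm4 came first instead, with 17.9 ± 6.59 RPKM (SD, n = 4), ahead of Lrrtm1 with 15.7 ± 0.735, Nlgn1 with 13.995 ± 2.90 and Nrxn3 with 11.6 ± 0.789. The libraries of each of these neighbours overlapped, so their order is not set, while Lrrtm3 (5.06 ± 1.29) and Nrxn2 (0.904 ± 0.188) again came last. Nrxn2 was the lowest of the 9 in all 14 groups. In the WT control input of whole cultures Lrrtm1 led with 24.8 ± 6.10 RPKM (SD, n = 5), and Lrrtm3 stood at 16.5 ± 1.53, rank 3 of the 9 by mean, and ranked 8 in both subfields of the WT control groups. Inputs and subfields belong to different experiments, and that difference was not tested.

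DG and CA3 differed most in Lrrtm4 and Lrrtm3, which were higher in DG in both genotypes, with and without lesion, and in Nlgn1, Lrrtm1 and Nrxn3, which were called lower in DG in every comparison but that of WT ECL, where they were called once WT DG ECL replicate 5 was left out. In the WT control groups, 2 of the 9 genes were called higher in DG and 3 lower, where called means an adjusted p under 0.05 in edgeR's quasi-likelihood test and a mean normalized count over 300. Of all genes tested, 3.06% were called, 1.13% higher and 1.93% lower. In the KO control groups, with 7 against 6 libraries, 2 were called higher and 5 lower, against 5.98% and 9.22% of all genes (15.2% in either direction). In the KO ECL groups 2 were called higher and 4 lower, against 3.55% and 4.74% (8.3%). In the WT ECL groups 2 were called higher and none lower, against 0.803% and 0.379% (1.18%), and without WT DG ECL replicate 5 the counts were 2 and 4, against 2.99% and 9.81% (12.8%).

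Lrrtm4 was at 90.4, 64.8, 157 and 128 CPM in the WT DG control libraries and at 20.7 and 25.4 CPM in the WT CA3 control libraries. Every DG library stood above every CA3 library, which held without regard to direction for 31.1% of all genes with a mean of at least 1 CPM, and the log2 fold change was 2.27 ± 0.29 (SE, adjusted p = 0.000344). In the KO control groups the 7 DG libraries ran from 61.4 to 166 CPM with a median of 125, and the 6 CA3 libraries from 16.5 to 52.0 CPM, the highest being replicate 1, the library with the raised Prox1. The groups again did not overlap (13.4% of all genes), with a log2 fold change of 2.21 ± 0.25 (adjusted p = 2.1e-06), or 2.48 ± 0.22 without that library (adjusted p = 1.35e-07). In the ECL groups the difference was 2.16 ± 0.18 in KO (adjusted p = 2.89e-06) and 2.31 ± 0.42 in WT (adjusted p = 0.0264). In WT DG ECL 6 of the 7 libraries lay between 73.1 and 164 CPM and replicate 5 at 24.3 CPM, close to the 21.0 to 23.0 CPM of WT CA3 ECL. Without replicate 5 the WT ECL difference was 2.45 ± 0.20 (adjusted p = 1.93e-07). With all 7 kept, leaving out any 1 of the other 9 libraries of that comparison ended the calls of Lrrtm4 and Lrrtm3, with adjusted p from 0.0518 to 0.166, while the log2 fold change of Lrrtm4 stayed between 2.16 and 2.38.

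Lrrtm3, another postsynaptic neurexin partner, showed the same direction at lower levels. It was at 29.4, 20.4, 19.4 and 16.8 CPM in the WT DG control libraries against 7.69 and 7.00 CPM in WT CA3 control, a log2 fold change of 1.56 ± 0.23 (adjusted p = 0.000927). The 7 KO DG control libraries ran from 19.0 to 29.4 CPM with a median of 21.6, above all 6 KO CA3 control libraries at 7.66 to 9.91 CPM (1.45 ± 0.11, adjusted p = 1.49e-08). No DG library overlapped a CA3 library in any of the 4 comparisons, although WT DG ECL replicate 5, at 9.99 CPM, was near the 8.85 CPM of the highest WT CA3 ECL library. The shares of all genes without overlap were 31.1% in WT control, 13.4% in KO control, 6.03% in WT ECL and 15.4% in KO ECL. The ECL differences were 1.32 ± 0.12 in KO (adjusted p = 7.82e-06) and 1.38 ± 0.26 in WT (adjusted p = 0.0269), or 1.47 ± 0.17 without replicate 5 (adjusted p = 8.73e-06). Without WT DG control replicate 1 the WT control call was lost because the mean normalized count fell under 300, and the log2 fold change was then 1.38 (adjusted p = 0.00175).

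**Figure D1:**
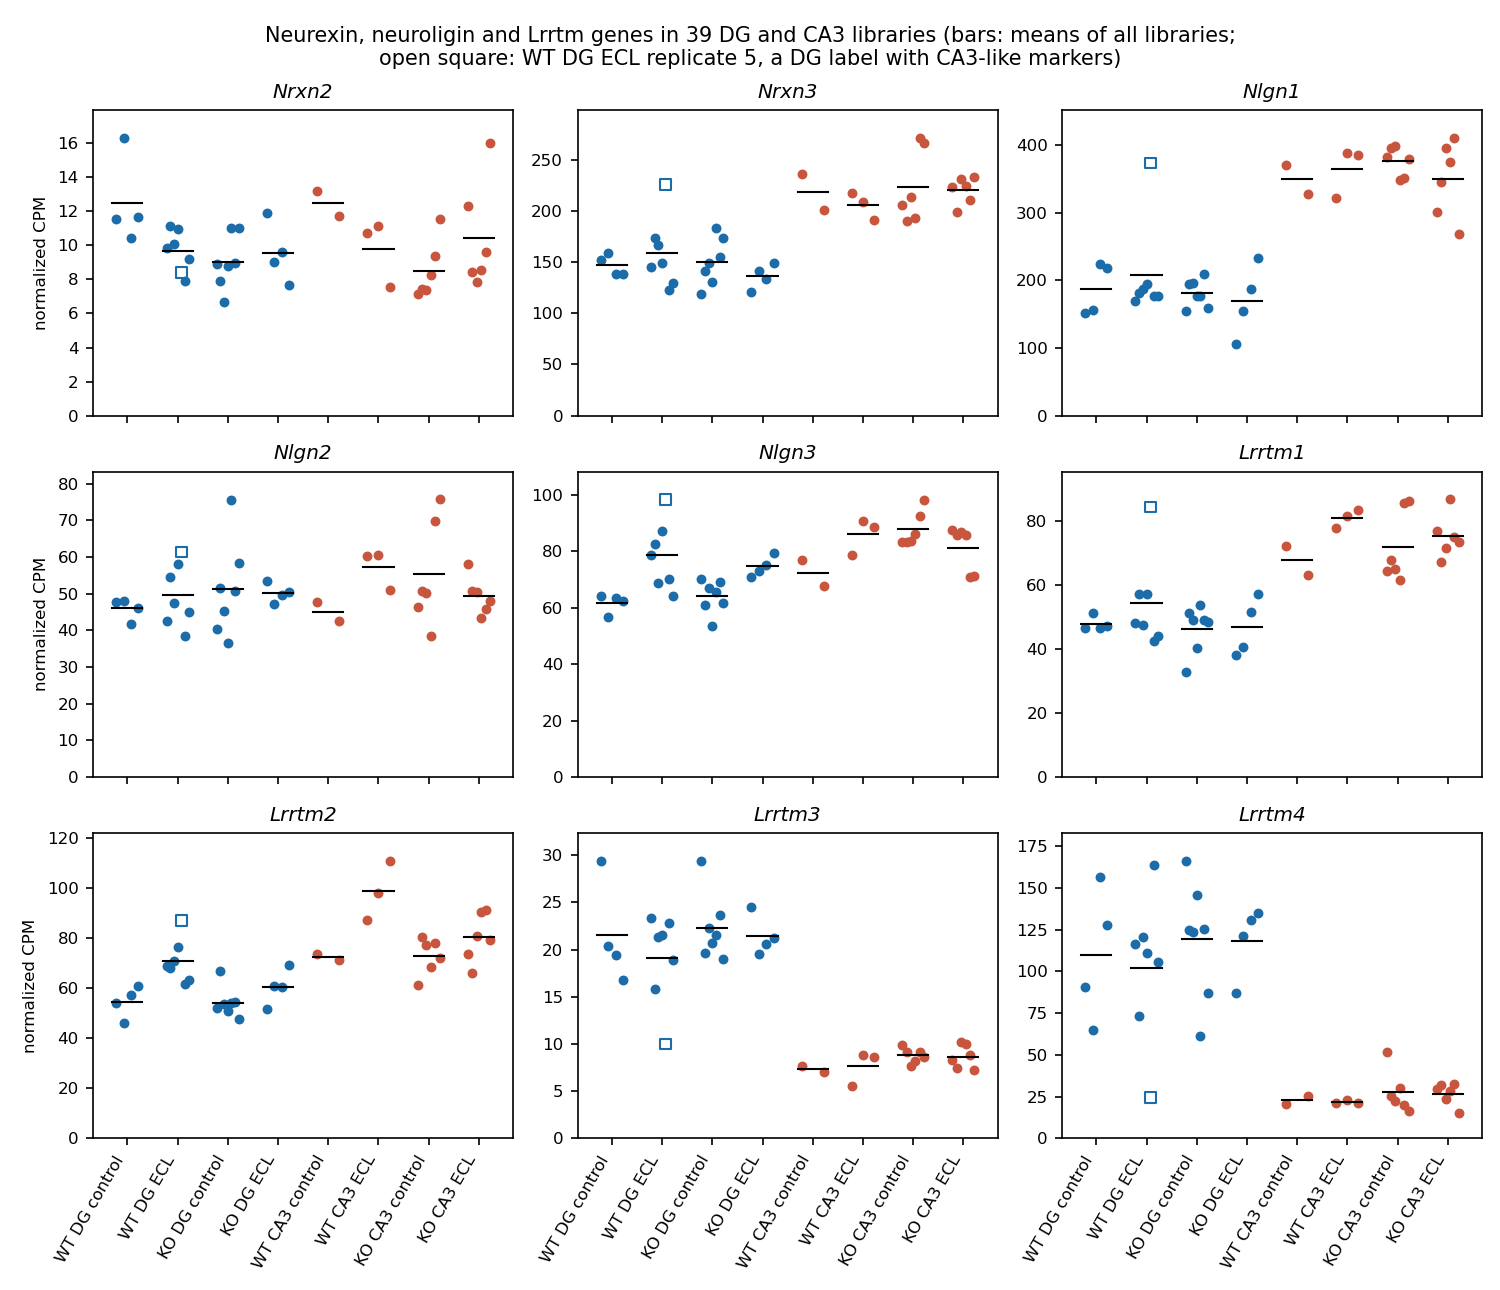
Normalized CPM (y axis, from 0) of each of the 9 genes in the 39 regional libraries, grouped along the x axis by genotype, subfield and lesion. Points are libraries, blue for DG and red for CA3, bars are group means over all libraries, and the open square is WT DG ECL replicate 5. Lrrtm4 and Lrrtm3 were higher in the DG groups, where 6 of the 7 WT DG ECL libraries had 73.1 to 164 CPM of Lrrtm4 and the open square lay at 24.3 CPM.

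Nlgn1, the neuroligin of excitatory synapses, ran the other way. It was at 152, 157, 224 and 219 CPM in the WT DG control libraries and at 371 and 328 CPM in WT CA3 control, a log2 fold change of -0.88 ± 0.17 (SE, adjusted p = 0.00702). In KO control, the 7 DG libraries at 154 to 209 CPM (median 178) all lay below the 6 CA3 libraries at 349 to 399 CPM (-0.95 ± 0.08, adjusted p = 4.8e-08). The libraries of 13.4% of all genes did not overlap there, in either direction. The KO ECL difference was -1.02 ± 0.19 (adjusted p = 0.00187). In WT ECL the value was -0.75 ± 0.19 and missed the threshold (adjusted p = 0.0577), and without replicate 5, whose 373 CPM lay among the CA3 libraries, it was -0.96 ± 0.09 (adjusted p = 1.1e-06). In WT control the call was lost without WT CA3 control replicate 1 (-0.78, adjusted p = 0.0634), which left a single CA3 library assumed to vary like the DG group.

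Lrrtm1 and the neurexin Nrxn3 were lower in DG in both KO comparisons. Lrrtm1 was at 32.9 to 53.6 CPM (median 48.8) in KO DG control and at 61.5 to 86.1 CPM in KO CA3 control (-0.53 ± 0.11, adjusted p = 0.000956), and in KO ECL its difference was -0.67 ± 0.13 (adjusted p = 0.00214). Nrxn3 was at 119 to 183 CPM (median 149) in KO DG control and at 190 to 271 CPM in KO CA3 control (-0.47 ± 0.10, adjusted p = 0.00191), and in KO ECL its difference was -0.68 ± 0.10 (adjusted p = 0.000302). In the KO comparisons the DG and CA3 libraries of both genes did not overlap, against 13.4% of all genes in KO control and 15.4% in KO ECL. In WT control Lrrtm1 stood at 46.6, 51.1, 46.4 and 47.0 CPM in DG and at 72.1 and 63.04 CPM in CA3 (-0.49 ± 0.13, adjusted p = 0.0457), and Nrxn3 at 152, 158, 139 and 138 CPM in DG and at 236 and 201 CPM in CA3 (-0.56 ± 0.13, adjusted p = 0.0247). Both WT control calls depended on nearly every library: leaving out 1 of the 6 ended them in 5 of 6 fits, with adjusted p from 0.0525 to 0.311, and in the sixth, without WT DG control replicate 2, both were called. In WT ECL the values were -0.51 ± 0.16 for Lrrtm1 and -0.31 ± 0.15 for Nrxn3, neither called, and without replicate 5 they were -0.67 ± 0.10 (adjusted p = 0.000207) and -0.43 ± 0.11 (adjusted p = 0.0122).

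Lrrtm2, also a neurexin partner of excitatory synapses, was called lower in DG in the KO control groups (-0.32 ± 0.08, adjusted p = 0.00789) and in the KO ECL groups (-0.40 ± 0.12, adjusted p = 0.0369), and the latter call was lost without KO DG ECL replicate 1, 2 or 3 (-0.32 to -0.40, adjusted p from 0.0874 to 0.139). Its WT values were -0.39 ± 0.14 in control (adjusted p = 0.143) and -0.41 ± 0.11 in ECL (adjusted p = 0.0693), and without replicate 5 the latter was -0.49 ± 0.10 (adjusted p = 0.00207). Nlgn3 was called lower in DG in the KO control groups alone (-0.35 ± 0.07, adjusted p = 0.00144), where 53.6 to 70.2 CPM in DG stood against 83.1 to 98.2 CPM in CA3. Nlgn2, the neuroligin of inhibitory synapses, was called in no comparison of the subfields. It was at 47.9, 48.1, 41.8 and 46.2 CPM in WT DG control and at 47.7 and 42.6 CPM in WT CA3 control, and the 95% interval of the log2 difference ran from -0.25 to 0.33 there and from -0.32 to 0.31 in KO control. Nrxn2 had 6.70 to 16.3 CPM over all 39 libraries and a mean normalized count under 300, so it could not be called at this depth.

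**Figure D2:**
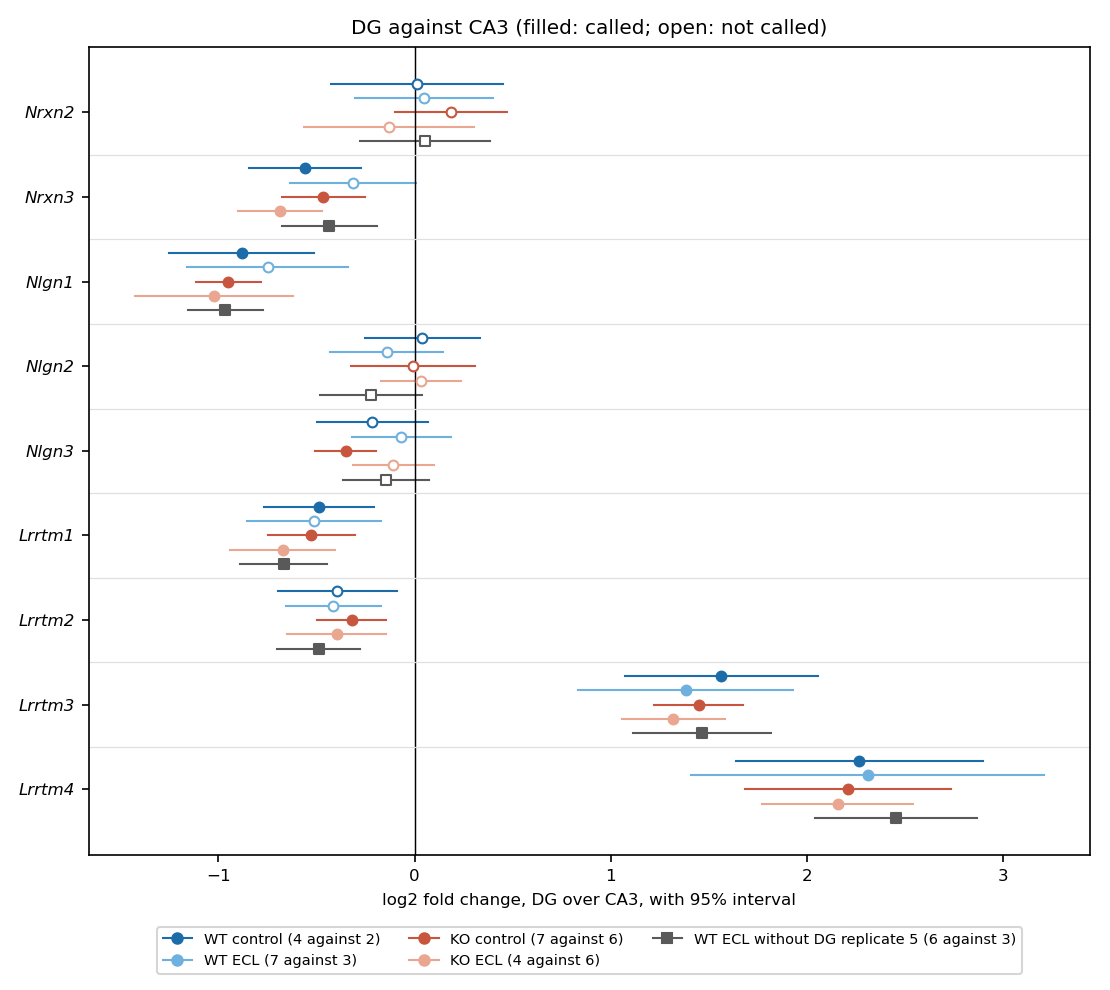
Log2 fold change of DG over CA3 (x axis) with its 95% interval for each of the 9 genes (y axis) in the 4 comparisons of the subfields, and in WT ECL without DG replicate 5 (grey squares). Filled symbols are called, open symbols are not; Lrrtm4 lay between 2.16 and 2.45 and Lrrtm3 between 1.32 and 1.56 in all 5, and Nlgn1 between -0.75 and -1.02.

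The subfields also differed in their cell markers. In the WT control groups, 6 neuron markers summed to 2779 to 3637 CPM in DG and to 5326 to 5909 CPM in CA3, 6 oligodendrocyte markers to 504 to 880 and 1216 to 1884 CPM, and 8 interneuron markers to 1075 to 1755 and 824 to 866 CPM, with no marker of these lists at 0 in a whole group. The interneuron list includes Reln, whose pattern over the subfield groups lay near that of Lrrtm4, and its share of the sum was not examined. In KO control the neuron sums were 2775 to 4522 CPM in DG and 6016 to 7855 CPM in CA3. The part of these markers in the differences of the 9 genes was not tested, and fewer cells of a type and less RNA per cell cannot be told apart in bulk tissue. The dentate granule list followed the labels, with 319 to 422 CPM in WT DG control against 72.1 to 77.9 CPM in WT CA3 control.

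The other genes of these pathways were taken as lists of secreted and glypican partners, other neurexin receptors and inhibitors, intracellular partners, and synaptic organizers that act in parallel. In WT control 4 of 34 parallel organizers were called higher in DG and 2 lower, 2 of 15 intracellular partners higher and 1 lower, and none of the 14 secreted partners or 11 receptors, against the same 1.13% and 1.93% of all genes. Higher in DG were Il1rapl1, a receptor that binds presynaptic phosphatases (1.40 ± 0.17, adjusted p = 0.000172), the scaffold Magi1 (1.17 ± 0.15, adjusted p = 0.00036) and the teneurin Tenm1 (0.90 ± 0.15, adjusted p = 0.00279). Lower were Tenm4 (-0.80 ± 0.14, adjusted p = 0.00312), Slitrk4 (-0.56 ± 0.13, adjusted p = 0.0161) and Apba2, an adaptor of the presynaptic side (-0.55 ± 0.13, adjusted p = 0.0193). In KO control 10 of 34 parallel organizers were called higher and 6 lower, and 5 of 15 intracellular partners higher and 4 lower, against 5.98% and 9.22% of all genes. The clearest of those higher were the scaffold Dlg1 (1.20 ± 0.08, adjusted p = 3.1e-09), the phosphatase receptor Ptprd (0.96 ± 0.07, adjusted p = 1.85e-08) and its partner Il1rap (1.08 ± 0.10, adjusted p = 1.2e-07). The clearest of those lower were Ptprs (-0.61 ± 0.08, adjusted p = 7.95e-06), Apba2 (-0.54 ± 0.09, adjusted p = 0.000176) and Flrt3 (-0.49 ± 0.08, adjusted p = 0.000176). C1ql2, a secreted protein of granule cells that binds neurexins, was higher in DG by 4.04 ± 0.26 in KO ECL (adjusted p = 3.48e-07). Il1rapl1 (0.92 ± 0.11) and Il1rap (0.75 ± 0.10) were also called higher there, and Cadm3 (-0.64 ± 0.10), Clstn1 (-0.58 ± 0.10) and Dlg2 (-0.59 ± 0.11) lower. In WT ECL with replicate 5, C1ql2 (6.43 ± 1.03), C1ql3 (4.55 ± 0.84) and Magi1 (1.01 ± 0.20) were called higher and Slitrk4 (-0.57 ± 0.13) lower. Of all genes, 8.3% were called in KO ECL and 1.18% in WT ECL.

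In the coIP experiment, 8 of the 9 genes were higher in the synaptopodin coIP than in the input of WT control cultures, and Lrrtm2 was not. The largest differences were those of Nlgn2, Nrxn2 and Nrxn3, with log2 fold changes of 1.17, 0.86 and 0.81, and the median over the 9 was 0.50 against 0.04 over all genes tested. Calls were common in this comparison: 55% of all genes tested had an adjusted p under 0.05, 29.6% with a higher and 25.5% with a lower value in coIP. In WT ECL cultures 8 of the 9 were again called higher, against 30.5% of all genes (27.8% lower, 58.3% in all), with a median of 0.34 against 0.02. In the libraries labelled Synpo-/-, where the antibody should find no synaptopodin, 3 of the 9 were called higher, against 15% of all genes (16.4% lower, 31.4% in all), with a median of 0.23 against 0.02 and 2 libraries a group.

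Nlgn2 was at 34.5, 44.5, 36.1, 41.1 and 45.9 CPM in the WT control inputs and at 90.7, 81.9, 92.2, 92.2 and 91.3 CPM in the coIPs. The fractions did not overlap (42.5% of all genes in either direction), the ratio of coIP to input of the same lysate ran from 1.84 to 2.63, and the log2 fold change was 1.17 ± 0.10 (SE, adjusted p = 4.79e-07). In WT ECL the inputs ran from 31.6 to 36.3 CPM and the coIPs from 70.9 to 94.8 CPM (1.28 ± 0.10, adjusted p = 1.51e-06). In KO the inputs were at 33.0 and 43.2 CPM and the coIPs at 77.1 and 71.7 CPM (0.93 ± 0.16, adjusted p = 0.00116). Nlgn2 thus was higher in every coIP than in every input of its group, and the fractions of 44.7% of all genes in WT ECL and 72% in KO did not overlap either.

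The neurexin Nrxn3 was at 168, 142, 118, 121 and 137 CPM in the WT control inputs and at 260, 243, 231, 220 and 231 CPM in the coIPs (0.81 ± 0.10, adjusted p = 1.06e-05). It rose by 0.90 ± 0.09 in WT ECL (adjusted p = 4.11e-06) and by 0.63 ± 0.13 in KO (adjusted p = 0.0037), without overlap of the fractions in any of the 3, against 44.7% of all genes in WT ECL and 72% in KO. Nrxn2 was at 12.2 to 24.6 CPM in the WT control inputs and at 24.6 to 35.2 CPM in the coIPs (0.86 ± 0.16, adjusted p = 0.000438). Its other differences were 0.78 ± 0.18 in WT ECL (adjusted p = 0.00242) and 0.59 ± 0.17 in KO (adjusted p = 0.0217), and the KO call was lost without KO input replicate 1 or 2 or KO coIP replicate 1 (0.63, 0.55 and 0.41, adjusted p = 0.056, 0.112 and 0.127). Both neurexins, whose proteins are presynaptic, were called higher as counted in all 3 comparisons, but the direction of Nrxn2 turned with length and GC trends removed, to -0.032 in WT control, -0.24 in WT ECL and -0.0049 in KO, none called.

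Of the other neuroligins, Nlgn1 was at 214 to 245 CPM in the WT control inputs and at 273 to 316 CPM in the coIPs (0.39 ± 0.07, adjusted p = 0.000421), and rose by 0.32 ± 0.09 in WT ECL (adjusted p = 0.00867). Nlgn3 was at 82.7, 97.6, 133, 122 and 140 CPM in the WT control inputs and at 117, 153, 177, 178 and 179 CPM in the coIPs, so the fractions overlapped, but each coIP was higher than the input of its own lysate (0.50 ± 0.15, adjusted p = 0.0113). Its WT ECL difference was 0.34 ± 0.10 (adjusted p = 0.00804). In KO both had a log2 fold change of 0.23 and were not called (adjusted p = 0.288 for Nlgn1 and 0.232 for Nlgn3).

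**Figure D3:**
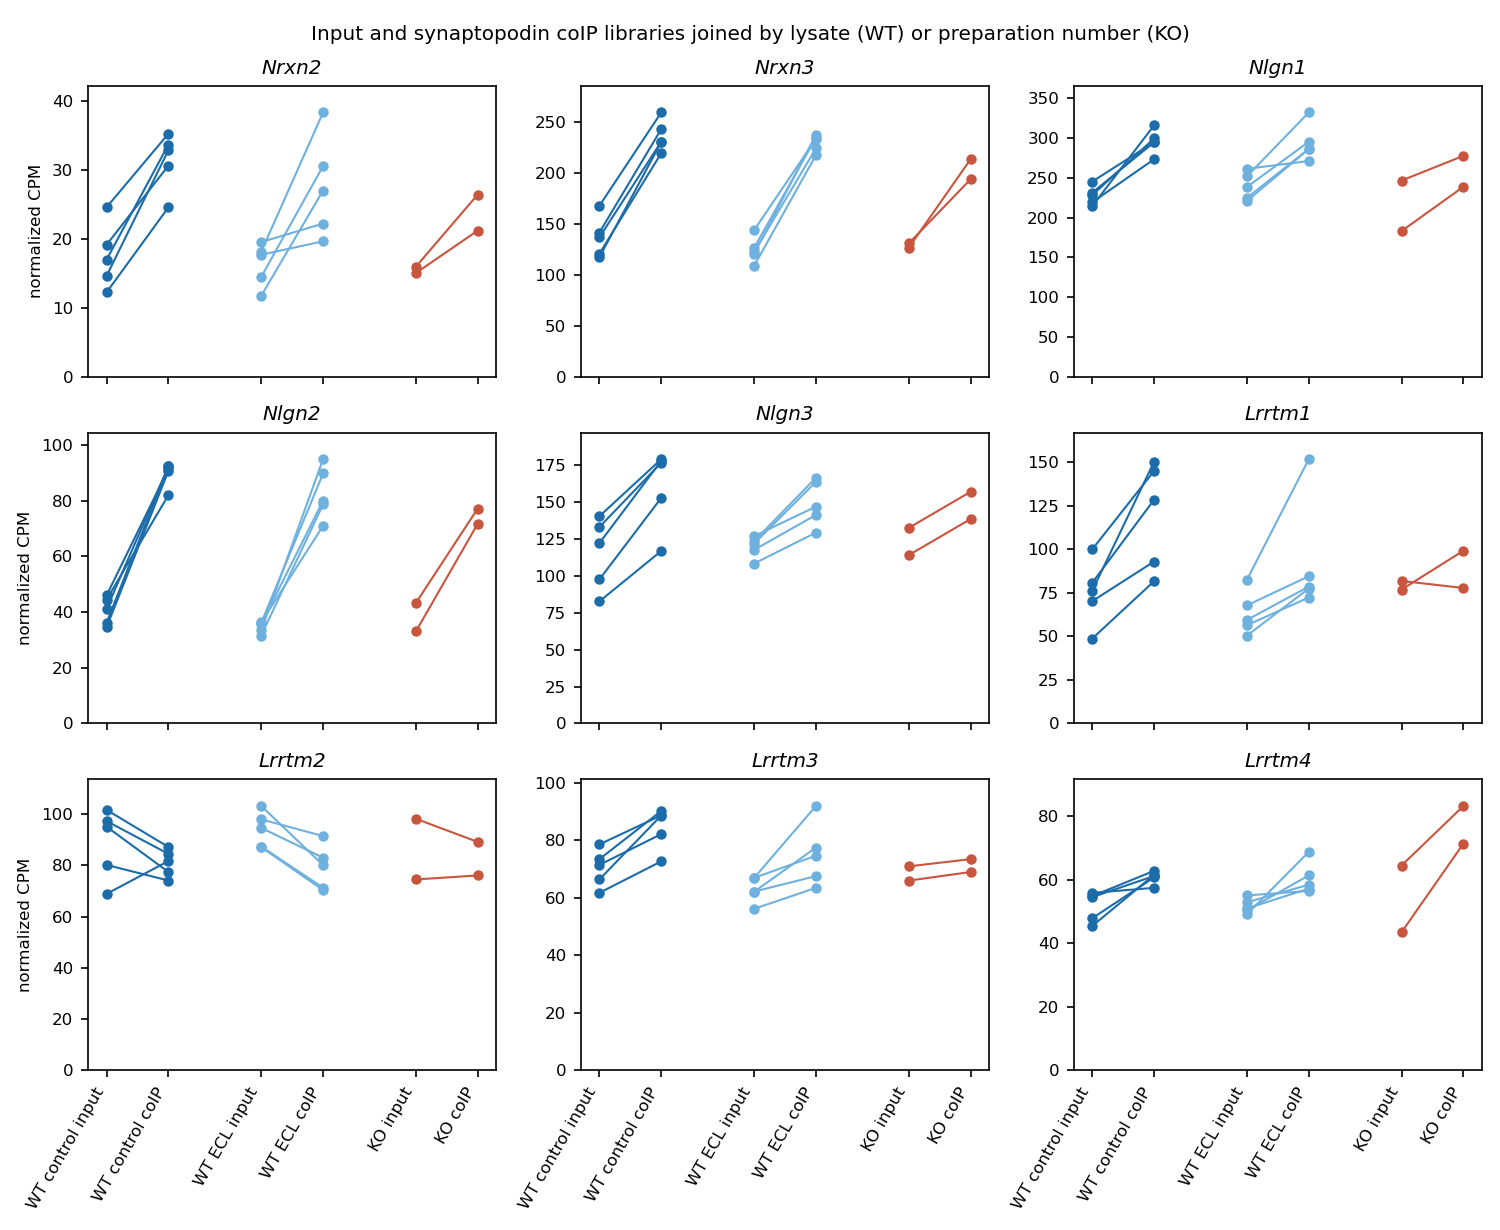
Normalized CPM (y axis, from 0) of the 9 genes in input and coIP libraries. Lines join WT libraries of the same replicate number, taken to share a lysate, for control (dark blue, 5) and ECL (light blue, 5). For KO (red, 2) they join libraries of the same preparation number, whose titles also carry a second, crossed numbering. All 10 WT lines rise for every gene but Lrrtm2, with Nlgn2 at 34.5 to 45.9 CPM in the WT control inputs and at 81.9 to 92.2 CPM in the coIPs.

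The 4 Lrrtm genes differed among themselves. Lrrtm1 was at 48.7, 70.1, 80.7, 76.2 and 99.9 CPM in the WT control inputs and at 81.6, 92.9, 128, 150 and 145 CPM in the coIPs (0.69 ± 0.19, adjusted p = 0.0066), with ratios within a lysate from 1.32 to 1.97. Its WT ECL difference of 0.58 ± 0.20 (adjusted p = 0.0225) was lost without WT ECL input replicate 1 or 2 (0.52 and 0.49, adjusted p = 0.0544 and 0.0624), and fell to 0.32 without WT ECL coIP replicate 4, the highest coIP library at 152 CPM (adjusted p = 0.0482). Lrrtm3 and Lrrtm4 rose by 0.28 ± 0.09 (adjusted p = 0.0186) and 0.25 ± 0.09 (adjusted p = 0.0217) in WT control. In every WT lysate their ratio was above 1, at most 1.40, but their calls were not firm. In WT control Lrrtm3 was lost without WT control input replicate 2 or 5 and Lrrtm4 without replicate 2 or 4 (adjusted p from 0.0626 to 0.0854), and in WT ECL the adjusted p with 1 library left out ran from 0.0166 to 0.139 for Lrrtm3, called in 2 of 10 such fits, and from 0.0228 to 0.0971 for Lrrtm4, called in 6 of 10. In KO, Lrrtm4 was at 64.4 and 43.4 CPM in the inputs and at 71.3 and 83.2 CPM in the coIPs (0.49 ± 0.18, adjusted p = 0.0561). Lrrtm2 was the exception: its ratio was above 1 in 1 of 5 WT control lysates and in none of 5 WT ECL lysates, with log2 fold changes of -0.11 ± 0.11 (adjusted p = 0.399) and -0.23 ± 0.10 (adjusted p = 0.0534). With the shared lysate as a block the WT ECL value became a call, -0.23 ± 0.08 (adjusted p = 0.0289), as it did in DESeq2 (-0.24, adjusted p = 0.0291), and the WT control value was -0.10 ± 0.08 (adjusted p = 0.307).

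The exons of these genes are long, and the coIP values depended on how exon length was treated. With the trend of counts with exon length removed from every library, the 9 genes gave 4 calls in WT control, 5 in WT ECL and 1 in KO, in place of 8, 8 and 3. Nlgn2 then had a log2 fold change of 1.06 in WT control and 1.20 in WT ECL, Nrxn3 of 0.35 and 0.43, Lrrtm1 of 0.92 and 0.89, and Lrrtm3 of 0.32 and 0.36, all called. Nlgn1 turned to -0.08 in WT control and -0.18 in WT ECL, not called, and Lrrtm2 in WT ECL became a call at -0.33 (adjusted p = 0.00789). Nlgn2, Nrxn3 and Lrrtm1 were called higher in WT control under all 18 alternative settings, and Nlgn2 and Nrxn3 in WT ECL as well.

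**Figure D4:**
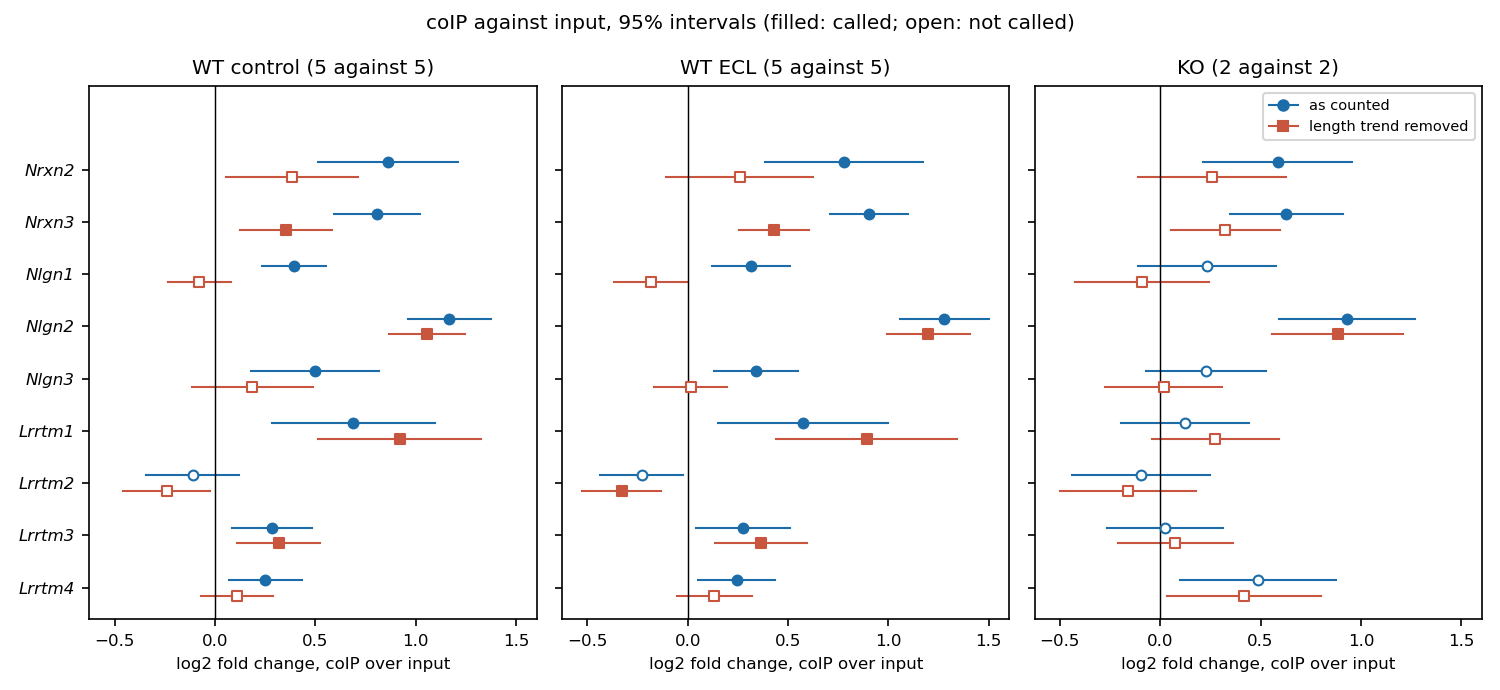
Log2 fold change of coIP over input (x axis) with its 95% interval for the 9 genes (y axis), as counted (blue circles) and with the exon length trend removed (red squares), in WT control, WT ECL and KO. Filled symbols are called: Nlgn2 moved from 1.17 to 1.06 in WT control, Nlgn1 from 0.39 to -0.08, and Lrrtm1 from 0.69 to 0.92.

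Whether the coIP difference depended on genotype or lesion was tested directly. The genotype test set the WT control libraries against the KO libraries, whose titles give no lesion state. None of the 9 genes was called for the difference of the coIP effect between WT control and KO in edgeR. None had an unadjusted p under 0.05, and none was called by DESeq2. Adjusted p ran from 0.795 to 0.974, 0% of all genes were called, and 1511 of 20621 genes had an unadjusted p under 0.05. The widest interval was that of Lrrtm1, 0.52 ± 0.33 (95% interval -0.18 to 1.21), and the interval for Nlgn2 ran from -0.20 to 0.58, so with 2 KO libraries a fraction a difference of that size was not detectable. For the difference between WT ECL and WT control, again none of the 9 was called in edgeR or DESeq2 or had an unadjusted p under 0.05, with 0% of all genes called and 434 of 19581 at an unadjusted p under 0.05. The neuron markers summed to 7053 to 8574 CPM in the WT control inputs and to 3887 to 5165 CPM in the coIPs. With the length trend removed, 2 of the 6 were called lower there and 0 higher. The 5 CA1 and subiculum markers went the other way, with sums of 179 to 254 CPM in the inputs and 252 to 331 CPM in the coIPs. The part of these markers in the coIP results was not tested.

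The other neurexin receptors and inhibitors, among them latrophilins and calsyntenins, were called higher in coIP in 11 of 11 cases in both WT comparisons and in 8 of 11 in KO, against 29.6%, 30.5% and 15% of all genes. Of the parallel organizers 30 of 34 were called higher in WT control, 29 in WT ECL and 19 in KO, with Ntrk3 (0.83 ± 0.08), Tenm4 (1.01 ± 0.10) and Lrrc4 (0.91 ± 0.09) the clearest in WT control (adjusted p from 1.47e-06 to 1.76e-06). Of the 15 intracellular partners 7 rose and 4 fell in WT control, where 25.5% of all genes fell. Those that fell included Lin7a (-1.46 ± 0.09, adjusted p = 2.07e-07), Sdcbp (-0.83 ± 0.11, adjusted p = 1.54e-05) and Lin7b (-0.66 ± 0.13, adjusted p = 0.000804), which encode small PDZ adaptors. Lin7a fell in KO as well (-1.39 ± 0.15, adjusted p = 0.000201). Of the 13 secreted and glypican partners tested, 2 rose and 1 fell in WT control. With the length trend removed, the receptors and inhibitors called higher were 8 in WT control, 8 in WT ECL and 5 in KO, and the parallel organizers 21, 20 and 11, against 29%, 30.5% and 14.5% of all genes.

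None of the 9 genes passed the threshold in the 5 comparisons of ECL with control when the 2 groups were fitted in edgeR. The share of all genes called was 5.61% in WT input, 1.37% in WT CA3, 5.9% in WT DG, 0.0433% in KO CA3 and 4.95% in KO DG. At an unadjusted p under 0.05 there was 1 of the 9 in WT input (Nlgn2, -0.23), 1 in WT CA3 (Lrrtm2, 0.34), 3 in WT DG and none in KO CA3 or KO DG, and DESeq2 called 1 gene in WT DG, Lrrtm2 (0.33, adjusted p = 0.0485), and none elsewhere. Other edgeR fits of WT DG made calls: Lrrtm2 and Nlgn3 with all regional groups in a single fit (0.38 and 0.35, adjusted p = 0.0174 and 0.0149) and with the replicate number as a block (0.36 and 0.34, adjusted p = 0.0301 and 0.0432), and Lrrtm2 with length and GC trends removed (0.58, adjusted p = 0.0144). The block rests on the 4 replicate numbers that both groups hold. ECL replicates 5, 6 and 7, the first with CA3-like markers, add nothing to its differences. With the length trend alone removed, neither Lrrtm2 nor Nlgn3 was called. The DESeq2 fit, the single fit of all groups and the fits with trends removed include replicate 5 and were not repeated without it.

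The values nearest to the threshold were those of Lrrtm2 and Nlgn3 in WT DG. Lrrtm2 was at 54.0, 46.1, 57.3 and 60.9 CPM in the control libraries and at 61.6 to 87.1 CPM (median 68.7) in the 7 ECL libraries, which did not overlap, with a log2 fold change of 0.35 ± 0.11 (SE, adjusted p = 0.0555). Nlgn3 was at 64.1, 56.7, 63.5 and 62.4 CPM in control and at 64.2 to 98.4 CPM (median 78.5) in ECL (0.32 ± 0.11, adjusted p = 0.068). Groups did not overlap for 13.4% of all genes with a mean of at least 1 CPM. In KO DG the ECL and control libraries of Nlgn3 alone did not overlap (10.3% of all genes), in KO CA3 those of none of the 9 (0.45%), and in WT CA3, with 3 against 2 libraries, those of Nlgn2, Nlgn3, Lrrtm1, Lrrtm2 and Nrxn2 (48.7%). Without the ECL replicate 5, which held the highest value of both genes, the log2 fold changes were 0.28 ± 0.10 for Lrrtm2 (adjusted p = 0.0603) and 0.25 ± 0.09 for Nlgn3 (adjusted p = 0.0869), and 6.8% of all genes were called. Nrxn2 was lower in WT DG ECL (-0.39 ± 0.15, adjusted p = 0.0795), below the count limit. Its adjusted p was 0.0468 in DESeq2 (-0.42) and 0.0441 in edgeR with length and GC trends removed (-0.45), and that limit alone kept it from a call there. In KO DG the values were 0.11 ± 0.11 for Lrrtm2 (adjusted p = 0.611) and 0.18 ± 0.09 for Nlgn3 (adjusted p = 0.266).

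The 95% intervals give the range of lesion differences that these libraries leave for the genes that set DG apart from CA3. For Lrrtm4, DG ran from 61.4 to 166 CPM in KO control and from 87.0 to 135 CPM in KO ECL. The interval of its log2 fold change was -0.50 to 0.38 in KO DG. In WT DG the interval was -0.88 to 0.62, or -0.41 to 0.47 without replicate 5. For Nlgn1 in KO CA3 it was -0.31 to 0.10 and for Nlgn1 in whole-culture WT input -0.08 to 0.21. In the same DG comparisons glial markers rose: 5 of 6 astrocyte markers in WT and 6 of 6 in KO were called higher after lesion, with sums of 2731 to 3196 CPM in WT DG control and 4657 to 6108 CPM in WT DG ECL, and 5 and 4 of 6 microglia markers. Of all genes, 5.9% in WT DG and 4.95% in KO DG were called in either direction. The WT marker values include replicate 5, and the marker calls were not repeated without it. The part of glial markers in the values of the 9 genes was not tested. Removing the length trend moved the median of all genes in WT DG by -0.14 and the split of calls from 1279 higher and 120 lower to 587 and 239, and left 0 of the 9 called.

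**Figure D5:**
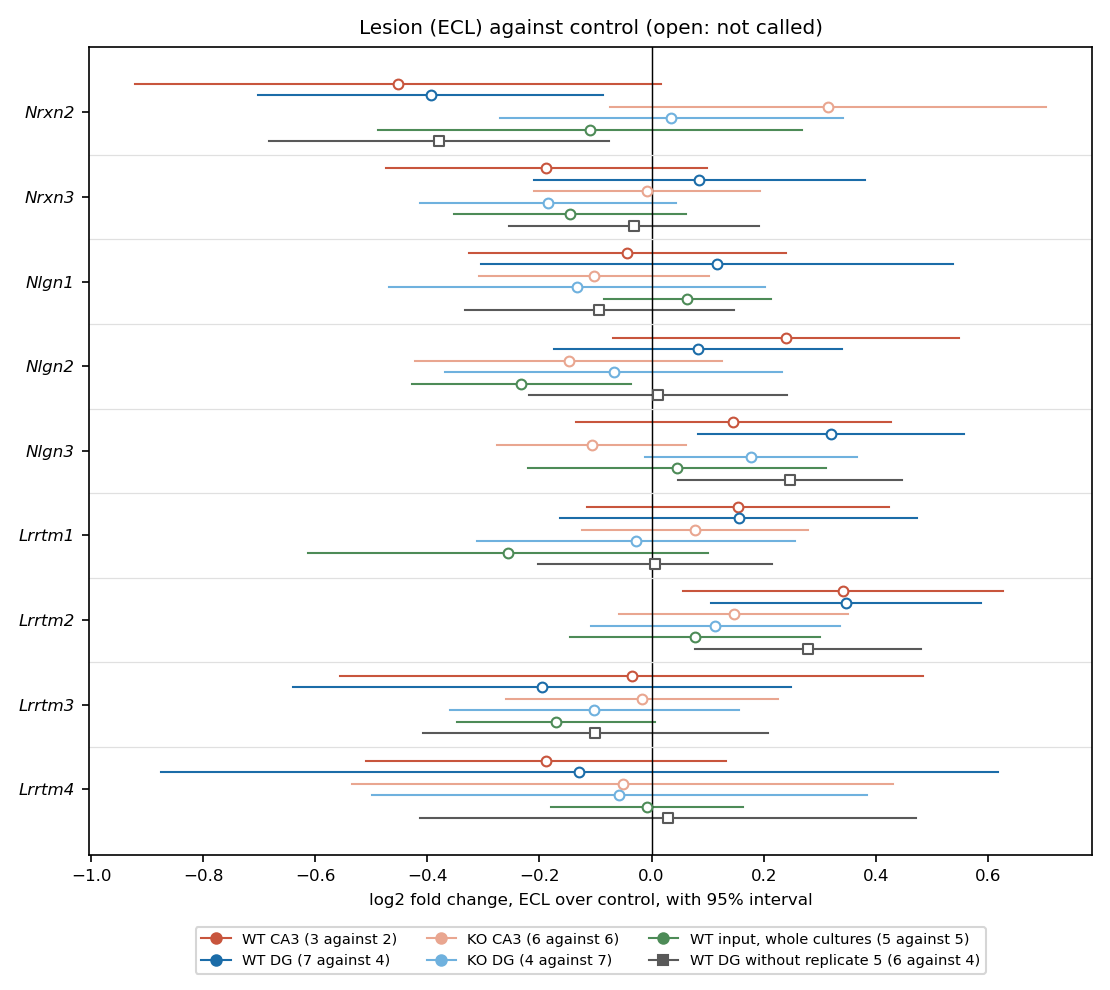
Log2 fold change of ECL over control (x axis) with its 95% interval for the 9 genes (y axis) in 4 comparisons of subfields, in WT input of whole cultures, and in WT DG without ECL replicate 5 (grey squares). All symbols are open since none was called; Lrrtm2 lay above 0 in every comparison, from 0.08 in WT input to 0.35 in WT DG.

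Of the other genes of the pathways, in WT DG the neuroligin inhibitor Mdga2 fell by 0.33 on the log2 scale (adjusted p = 0.0351) and Ptprd by 0.41 (adjusted p = 0.0484), 1 of 11 receptors and inhibitors and 1 of 34 parallel organizers, against 5.9% of all genes. Both calls include WT DG ECL replicate 5, the library with CA3-like markers, and whether they hold without it was not tested. In KO DG 1 of 11 receptors and inhibitors was called higher and 1 lower, 3 of 15 intracellular partners lower, 1 of 34 parallel organizers higher and 5 lower, and none of 14 secreted partners, against 4.95% of all genes in either direction. Among them the scaffolds Dlg1 (-0.73 ± 0.10, adjusted p = 0.000325) and Dlg2 (-0.48 ± 0.09, adjusted p = 0.00456) and the adhesion gene Cadm2 (-0.56 ± 0.10, adjusted p = 0.0028) were lower, and Ptprs (0.34 ± 0.09, adjusted p = 0.026) and Dag1 (0.32 ± 0.09, adjusted p = 0.0439) were higher. In WT input 2 of 13 secreted partners, 1 of 15 intracellular partners and 1 of 34 parallel organizers were lower, none was higher, and 5.61% of all genes were called. Among them Lin7b (-0.92 ± 0.18, adjusted p = 0.0112), Nxph1 (-0.37 ± 0.09, adjusted p = 0.0265) and Cadm1 (-0.46 ± 0.12, adjusted p = 0.0368) were lower. No gene of these lists was called after lesion in CA3 of either genotype.

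Between the genotypes, none of the 9 genes was called in edgeR in control CA3, ECL CA3, control DG or ECL DG, where 0.00413%, 0.00891%, 0.0124% and 0.0083% of all genes were. DESeq2 called none of the 9 either, and an unadjusted p under 0.05 was reached by Nrxn2 in control CA3 (-0.61 ± 0.19) and control DG (-0.49 ± 0.14) and by Lrrtm2 in ECL DG (-0.25 ± 0.11), with adjusted p of 0.159, 0.215 and 1.00. Nrxn2 was at 11.6, 16.3, 10.4 and 11.7 CPM in WT DG control and at 6.70 to 11.04 CPM (median 8.89) in KO DG control, with overlap, and its counts lay under the limit for a call. For Lrrtm4 in control DG the 95% interval of the difference between libraries labelled KO and WT was -0.43 to 0.61, and for Nlgn1 it was -0.36 to 0.19. Whether the lesion effect differed by genotype was tested for CA3 and DG: none of the 9 genes and 0% of all genes were called in edgeR, none of the 9 in DESeq2, 1 of the 9 had an unadjusted p under 0.05 (Nrxn2 in CA3, 0.73 ± 0.31), and 4589 and 2730 of all genes had one. Without WT DG ECL replicate 5 none of the 9 was called in the comparisons of ECL DG or in the DG interaction.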

How the data were processed

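The submitters' processing notes name cutadapt 3.5 (adapter and quality trimming), STAR 2.7.8a (mapping) and featureCounts 2.0.1 (counting without strand over exons of a GENCODE annotation of GRCm38), and libraries with few uniquely mapped reads were left out by the authors. The deposited values are raw counts per gene symbol and library. Gene positions, exon lengths and strands were read from the annotation, which the authors deposited with the counts. Tests were fitted with the quasi-likelihood method of edgeR 4.0.16 (R 4.3.3) after filterByExpr and TMM, on the 2 groups compared or the 4 of an interaction, with Benjamini-Hochberg adjustment over all genes tested. A call needs an adjusted p under 0.05, with a mean normalized count over 300 as a second condition for subfields. SE is the log2 fold change divided by the square root of F. Normalized CPM uses TMM library sizes, and RPKM is that value per kilobase of merged exons. Counts carry no molecular identifiers, so depth alone understates the error.

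The members and lists were chosen with earlier results of these data known. Of the other genes of the lists, up to 3 called with the smallest p in each direction were named, with those that a result turns on. Alternatives were DESeq2 1.42.0, RLE size factors, no low-count filter, lowess removal (span 0.3) of length or of length and GC trends, all groups in a single fit, the replicate number as a block, no count limit, and leaving out each library. Coding-transcript exons were the alternative for RPKM. The block together with the length trend, and the counts of the other lists with the length trend removed, were added after seeing the data. In WT, coIP and input of a number were taken to share a lysate, which the titles do not state. Deviations of these pairs from their group means correlated with r from 0.105 to 0.442 across genes. The titles of the KO coIP and input samples carry 2 numberings that are crossed for the inputs. The preparation number was used, its 2 pairs gave r = 0.0456, and the other numbering was an alternative. The fits were tested on simulated data with planted changes larger than most differences given here, a test that does not speak to smaller ones. The authors' methods named DESeq2 for their comparisons.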

Additional observations from a re-analysis of the deposited data

Results flagged for a closer look

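Of 90 groups of values tested over the 9 genes in groups of 4 to 7 libraries, 6 held a library far from the others, against 4.5 expected at 1 in 20 by chance. WT DG ECL replicate 5, the library with CA3-like markers, held 2 of them: Nlgn1 at 373.4 CPM against 169.7 to 194.4 CPM in the other 6 libraries, and Lrrtm1 at 84.19 CPM against 42.5 to 57.1 CPM. Lrrtm2 was at 66.88 CPM in KO DG control replicate 2 against 47.6 to 54.7 CPM. Lrrtm1 was at 51.07 CPM in WT DG control replicate 2 against 46.4 to 47.0 CPM, and at 151.6 CPM in WT coIP ECL replicate 4 against 72.2 to 84.4 CPM. Nlgn2 was at 81.92 CPM in WT coIP control replicate 2 against 90.7 to 92.2 CPM.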

How the results depend on the processing

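Over all alternatives, the 39 called values of the 9 genes kept their direction and call 613 times, lost the call 87 times and reversed 8 times, and the 141 values not called stayed so 2839 times and became calls 44 times. The cause was not tested where the setting's own construction does not show it. For coIP against input in WT control (8 of 9 genes called), 4 were called with the length trend removed and 5 with length and GC trends removed, and leaving out 1 library gave 6 to 8. In WT ECL (8 called), no filter on low counts, the length trend, and the replicate block with the length trend gave 5 each, and leaving out 1 library gave 5 to 8, with 5 without WT input ECL replicate 1. In KO (3 called), the length trend left 1, and leaving out 1 library gave 2 to 3. The reversals were those of Nlgn1 in WT control (-0.077 with the length trend removed, -0.079 with the replicate block as well) and WT ECL (-0.18, -0.18, and -0.018 with length and GC trends removed), and of Nrxn2 with length and GC trends removed (-0.032 in WT control, -0.24 in WT ECL, -0.0049 in KO). Removing the length trend moved the median of all genes from 0.04 to 0.10 in WT control and from 0.02 to 0.11 in WT ECL.

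For DG against CA3 in WT control (5 called), the replicate block, with or without the length trend, gave 3, and leaving out 1 library gave 2 to 5 (2 without WT CA3 control replicate 1 or WT DG control replicate 1). In WT ECL (2 called), DESeq2, all groups in a single fit, the replicate block, and the block with the length trend gave 5 each, the length trend 4, and leaving out 1 library 0 to 6, with 6 without WT DG ECL replicate 5 and 0 without any other. The block in that comparison rests on the 3 numbers that both groups hold, so WT DG ECL replicate 5 adds nothing to it. All genes in that comparison split into 193 higher and 91 lower as reported, 258 and 206 with the length trend removed, and 354 and 925 with all groups in a single fit. In KO control 7 were called in every fit, and in KO ECL 5 to 6. For the lesion in WT DG (0 called), DESeq2 gave 1 and length and GC trends removed gave 1 (Lrrtm2 in both), and all groups in a single fit gave 2 and the replicate block 2 (Lrrtm2 and Nlgn3 in both). For KO against WT in control CA3 (0 called) the block gave 1 (Lrrtm4, 0.61, adjusted p = 0.03). That fit rests on replicates 1 and 2, the only numbers that both groups hold. Lrrtm4 was at 52.0 CPM in KO replicate 1, the library with the raised Prox1, against 20.7 CPM in WT replicate 1. In replicate 2 it was at 25.5 CPM in KO and 25.4 CPM in WT. The block gave 8, 9 and 4 calls in the 3 coIP comparisons and changed no other count by over 1.5 times. In the comparisons of subfields, lesion and genotype the numbers did not deviate together in every pair, so those libraries share only a number. A library whose number no other group of the fit holds adds nothing to a difference fitted with the block. For KO coIP, whose titles hold 2 crossed numberings, the block gave 4 calls by preparation number and 3 by the other. Mean RPKM of Nrxn2 over the 39 regional libraries was 0.719, or 1.08 over exons of coding transcripts. Depth limits Nrxn2 in the subfields and Lrrtm3 in CA3, whose mean counts lay under the limit for a call.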

Other observations

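Over the 8 means of the subfield groups, the genes whose pattern lay nearest to a member were sought for the 3 members with a span over 1 on the log2 scale, among 10762 genes, by the root mean square of the differences of centred log2 values. Of the 8 groups 4 are DG and 4 CA3, and likeness is a description over these means. The WT DG ECL mean includes replicate 5, the library with CA3-like markers, and the order of genes without it was not examined. Nearest to Nlgn1, with a span of 1.20, were Rab15 (0.0496), Nav3 (0.0596) and Elavl2 (0.061). Nearest to Lrrtm3, with a span of 1.58, were Shisa9 (0.0806), Asxl3 (0.0876) and Rgs6 (0.0893). Nearest to Lrrtm4, with a span of 2.42, were Trpc6 (0.0947), Npnt (0.127) and Reln (0.135).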
